A study of Mus musculus with 9 samples.

Results

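The OAS genes (Oas1a, Oas1c, Oas1g, Oas2, Oas3, Oasl1 and Oasl2) were examined in ribosome profiling (RiboSeq) libraries from mouse macrophages. They were selected by gene name, 7 of the 16921 genes listed, with earlier results of these data known, so their own changes are given as a description and not as a test. In RiboSeq, mRNA is digested and the fragments that ribosomes protect (footprints) are sequenced and counted for each gene. The cells were immortalized bone marrow-derived macrophages (BMDMs) from TTP-deficient mice, positive for CD11b and F4/80, that carried a doxycycline-inducible vector for GFP, GFP–TTP or GFP–TTP-AA. The cells of all 3 conditions were TTP-deficient per the labels, carried the c-Myc and Ras oncogenes used for immortalization, and received 1 μg/ml doxycycline over 6 h and 1 μg/ml LPS over 1 h. TTP (tristetraprolin, encoded by Zfp36) is an RNA-binding protein that directs AU-rich mRNAs to decay, and TTP-AA is a mutant that the kinase MK2 cannot phosphorylate. Each condition had 3 libraries, numbered 1 to 3. Each construct stood in its own transduced cells, so an effect of the construct cannot be told apart from a difference between the transduced populations, and no uninduced or unstimulated library was analysed here. The labels do not say whether libraries of a condition came from separate cultures.

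Oligoadenylate synthetases (OAS) are enzymes that interferon induces. On binding double-stranded RNA they join ATP into short chains with 2′-5′ bonds, and these chains act as a second messenger of the antiviral response. OAS1, OAS2 and OAS3 proteins differ in the number of repeats of the synthetase unit. OASL proteins carry ubiquitin-like repeats at their end. In the mouse, Oasl2 has kept the synthetase activity and Oasl1 has lost it, and Oasl1 is known to hold back translation of Irf7 mRNA. The mouse also has many copies of Oas1, of which Oas1a and Oas1g are the main active enzymes.

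All 7 OAS genes lie on chromosome 5 (GRCm38, GENCODE annotation), in 2 groups. Oasl2 (chr5:114896936-114912234) and Oasl1 (chr5:114923240-114937915), both on the plus strand, lie within 41.0 kb. The cluster of Oas2 (chr5:120730333-120749853), Oas3 (chr5:120753098-120777661), Oas1c (chr5:120800194-120812514), Oas1g (chr5:120876142-120887613) and Oas1a (chr5:120896256-120907521), all on the minus strand, spans 177 kb and starts 5.79 Mb away.

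The bases just before the gene starts show how closely some of the copies are related, and they were searched for the interferon-stimulated response element in the form GAAA, any 2 bases, GAAA. RefSeq promoter windows (GRCm38.p6, 250 bases before to 50 after the start) were given for 6 of the 7 OAS genes, and 4 of these held the motif on either strand, against 3.44% of all 32851 windows. The last 120 bases before the start are printed 5′ to 3′ on the strand of the gene, with matches in capitals.
Oas1a (chr5:120907526-120907645, minus strand): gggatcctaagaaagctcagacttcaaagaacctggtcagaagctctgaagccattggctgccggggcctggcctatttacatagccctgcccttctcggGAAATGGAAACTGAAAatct
Oas1g (chr5:120887614-120887733, minus strand): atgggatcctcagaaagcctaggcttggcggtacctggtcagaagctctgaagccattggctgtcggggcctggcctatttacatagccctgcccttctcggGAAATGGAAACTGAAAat
Oas1c (chr5:120812515-120812634, minus strand): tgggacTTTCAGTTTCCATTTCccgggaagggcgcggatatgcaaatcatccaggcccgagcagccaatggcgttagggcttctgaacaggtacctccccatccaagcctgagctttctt
Oas3 (chr5:120777660-120777779, minus strand): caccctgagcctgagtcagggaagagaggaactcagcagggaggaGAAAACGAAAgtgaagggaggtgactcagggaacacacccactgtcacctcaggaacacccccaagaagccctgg
Oas1a and Oas1g each held 2 overlapping matches that together cover 16 bases, beginning 20 and 18 bases before the start, and their windows were equal at 108 of 118 positions when shifted by 2 bases. Oas1c held 2 overlapping matches on the opposite strand, beginning 114 bases before its start. As printed, the Oas1c window begins next to the start of Oas1b, which is transcribed the other way (chr5:120812635-120824163, plus strand). The matches lie at that end of the window. Oas3 held 1 match, beginning 75 bases before its start. In Oasl1 and Oasl2 these letters were not in the window. A match is a string of letters and not a measured binding site.

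TTP binds AU-rich elements in the 3′ untranslated region, and the core TATTTAT was counted there in the GENCODE transcript with the longest coding sequence. It occurred once in Oas3 and not in the other 6 OAS genes. Shorter AU-rich forms such as ATTTA were not counted. TTP binding was not measured in these libraries, so a gene without the core may still be bound. The paper mapped binding of GFP–TTP and GFP–TTP-AA to RNA by iCLIP after the same treatment, and those data were not used here. The Oas3 match begins 96 bases after the stop codon (chr5:120754255-120754275, minus strand): tgtgttgTATTTATctgtatg. Among 9819 genes with a mean level of at least 10, 27.8% held the core. Among genes with 3′ untranslated regions of 0.8 to 1.2 times the length of the gene in question, the share was 30.1% for Oas3 (1266 bases), 20.4% for Oas1a (736 bases) and 34.5% for Oas2 (1625 bases).

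Footprints are given as a level, which is the footprint count that the authors' model fitted for a gene in a library, divided by the size factor of that library. These values are fitted and not observed. For each gene they hold 1 term for the condition and 1 for the replicate number, so the spread between replicate numbers is the same in every condition and carries no independent error. Whether the ranges of the conditions overlap therefore follows from the size of these terms and does not show how well replicates agreed. The error of a change is the deposited standard error (SE) of its log2 fold change. Fold changes were shrunken towards 0 by the model, more strongly where a gene has few reads or varies more. From the size of its SE, either 42.8% or 57.2% of the unshrunken log2 change of Oas2 in GFP–TTP against GFP was kept, so the folds given here understate the changes of such genes. A gene was called where a Wald test, adjusted over all genes with a mean level of at least 10 by Benjamini-Hochberg, gave an adjusted p below 0.05. Library sums of the fitted counts ranged from 2570292 to 12804501.

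Zfp36, which the GFP–TTP and GFP–TTP-AA vectors encode, had levels of 458, 924 and 1531 in GFP, GFP–TTP and GFP–TTP-AA. The GFP level of 458 is a fitted value, in cells labelled TTP-deficient with a vector that does not encode Zfp36. Shrinkage draws the levels of the conditions together. In GFP–TTP-AA against GFP either 47.9% or 52.1% of the unshrunken log2 change of Zfp36 was kept. How many Zfp36 footprints the GFP libraries held can therefore not be read from that level, and the source of any was not tested. Zfp36 was called higher in all 3 comparisons (log2 fold changes of 1.01 ± 0.25 (SE), 1.74 ± 0.25 and 0.73 ± 0.25). The macrophage markers Cd68, Csf1r, Itgam, Lyz2, Ptprc and Adgre1 (listed as Emr1, the gene of F4/80) had levels between 2283 and 71203. Of 10 markers of other blood, stromal and epithelial cells, 4 were in the table, and 3 of these (Cd79a, Col1a1 and Cdh5) had levels between 0.462 and 3.96. The neutrophil marker S100a8, which macrophages can also express, had levels of 26.9, 25.5 and 55.7 in GFP, GFP–TTP and GFP–TTP-AA.

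All 7 OAS genes had their highest level in GFP–TTP-AA, and all but Oas1c had their lowest in GFP–TTP. These are orders of fitted levels. In GFP–TTP-AA against GFP only Oasl1 was called, and Oas3 (0.05 ± 0.21) and Oas1g (0.12 ± 0.25) differed by less than 1 SE. The order GFP–TTP-AA, GFP, GFP–TTP from high to low held for 6 of the 7 OAS genes, and for 23.0% of the 10099 genes with a mean level of at least 10. Oas1c, the exception, had the order GFP–TTP-AA, GFP–TTP, GFP. In GFP–TTP-AA the OAS level per kb of coding sequence was highest for Oas1a (202), followed by Oas3 (109) and Oasl1 (96.9), then Oas1g (33.9), Oas2 (22.3), Oas1c (12.0) and Oasl2 (9.63). In GFP–TTP the level per kb was again highest for Oas1a (103) and Oas3 (42.3), but Oas1g (19.3) lay above Oasl1 (16.8), and Oas1c (11.5) above Oas2 (7.74), with Oasl2 (5.22) last. The places of Oas1a, Oas1g and Oas1c in these orders are uncertain, because parts of their coding sequences also occur in other genes, as given below.

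**Figure D1:**
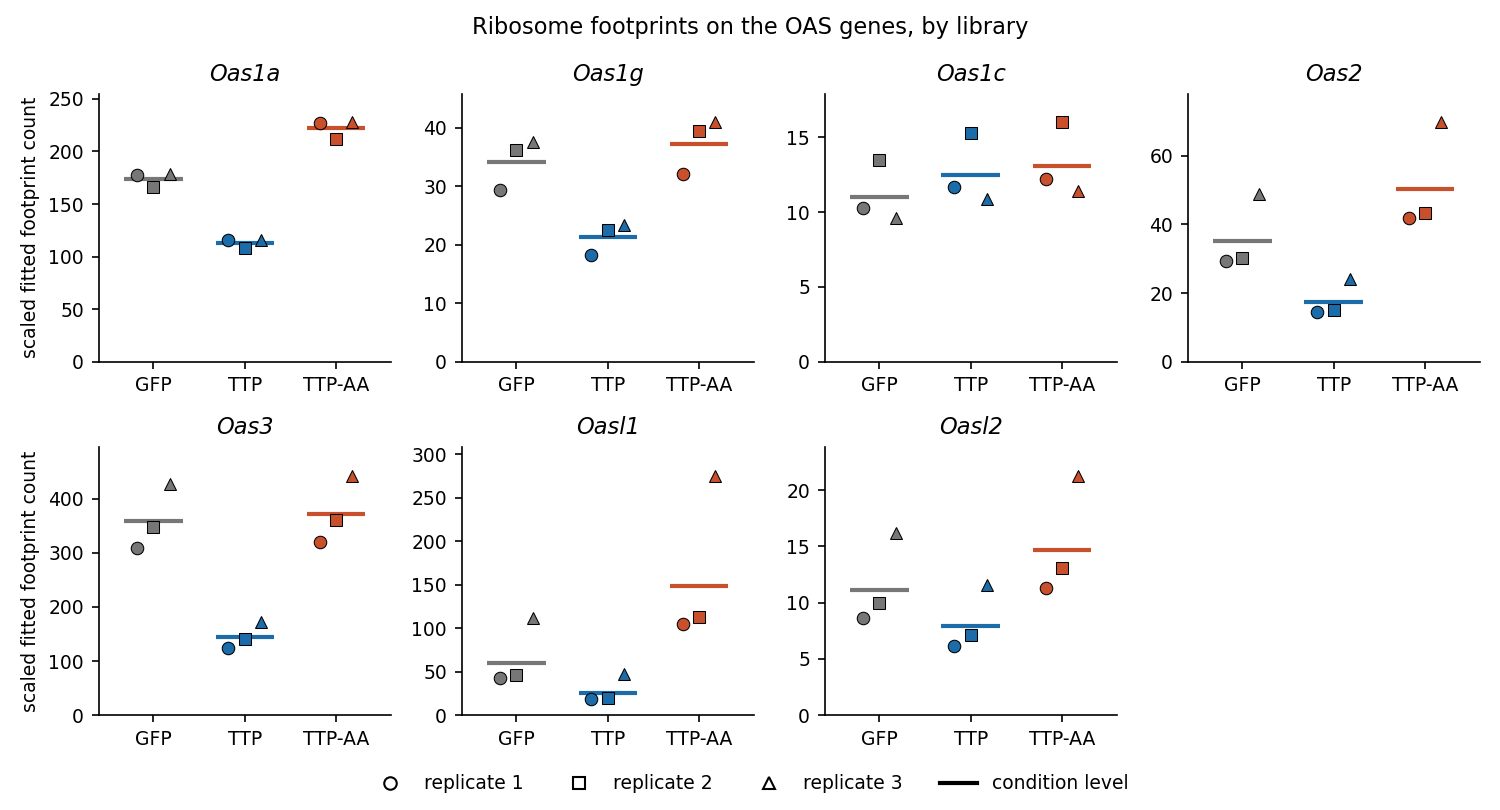
Levels (scaled fitted footprint counts, linear axis from 0) of the 7 OAS genes in the 9 libraries, with circles, squares and triangles for replicates 1, 2 and 3 and a line for the level of each condition. The level in GFP–TTP lies lowest for 6 of the 7 OAS genes, and the triangle of replicate 3 lies high for Oasl1, Oas2 and Oasl2.

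Oas3, the synthetase with the longest protein of the family, had levels of 309, 348 and 427 in the GFP libraries, 124, 140 and 172 in GFP–TTP, and 320, 361 and 443 in GFP–TTP-AA (replicates 1, 2 and 3). The fitted values of GFP–TTP lay below those of the other conditions, whose ranges overlapped. The level in GFP–TTP was 2.48-fold lower than in GFP (log2 fold change −1.31 ± 0.21), and in GFP–TTP-AA it was 2.57-fold higher than in GFP–TTP (1.36 ± 0.21). GFP–TTP-AA and GFP differed by 0.05 ± 0.21 on the log2 scale.

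Oas2, the synthetase of intermediate length, had levels of 29.5, 30.4 and 49.0 in GFP, 14.6, 15.0 and 24.2 in GFP–TTP, and 42.0, 43.3 and 69.8 in GFP–TTP-AA. The fitted values of GFP–TTP did not overlap with the others, while the ranges of GFP and GFP–TTP-AA did. The log2 fold change was −1.02 ± 0.25 in GFP–TTP against GFP and 1.53 ± 0.25 in GFP–TTP-AA against GFP–TTP, a 2.88-fold difference in level. GFP–TTP-AA against GFP gave 0.51 ± 0.24, which was not called.

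Oasl1, which has lost the synthetase activity, showed the largest shrunken log2 fold changes of the family in both comparisons with GFP–TTP-AA. In GFP–TTP against GFP that of Oas3 was larger (−1.31 ± 0.21 against −1.22 ± 0.23). That gap is smaller than either SE and shrinkage differed between genes, so Oas3 and Oasl1 are not ranked there. The levels of Oasl1 were 42.5, 45.7 and 111 in GFP, 18.3, 19.7 and 47.9 in GFP–TTP, and 105, 113 and 276 in GFP–TTP-AA. In each condition replicate 3 lay more than 2-fold above the others, so the ranges of GFP and GFP–TTP overlapped, and those of GFP and GFP–TTP-AA did too, although every replicate number kept the same order of conditions, as the fit requires. The log2 fold change was −1.22 ± 0.23 in GFP–TTP against GFP, 1.31 ± 0.23 in GFP–TTP-AA against GFP and 2.53 ± 0.23 in GFP–TTP-AA against GFP–TTP, the last being a 5.76-fold difference. Oasl1 was the OAS gene called in all 3 comparisons. Oasl2, its neighbour, had low levels: 8.60, 9.95 and 16.2 in GFP, 6.13, 7.10 and 11.5 in GFP–TTP, and 11.3, 13.1 and 21.3 in GFP–TTP-AA. Its ranges overlapped in every comparison. GFP–TTP-AA against GFP–TTP (0.88 ± 0.23) was called, whereas GFP–TTP against GFP (−0.49 ± 0.23) and GFP–TTP-AA against GFP (0.40 ± 0.24) were not.

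Of the Oas1 copies, Oas1a and Oas1g, both active synthetases, had the same order of conditions. Oas1a had levels of 178, 166 and 178 in GFP, 115, 108 and 116 in GFP–TTP, and 227, 212 and 228 in GFP–TTP-AA, and the small replicate term left no overlap between conditions. Its log2 fold change was −0.62 ± 0.19 in GFP–TTP against GFP and 0.35 ± 0.19 in GFP–TTP-AA against GFP, neither called, and 0.97 ± 0.19 in GFP–TTP-AA against GFP–TTP, which was called. Oas1g had levels of 29.4, 36.3 and 37.6 in GFP, 18.3, 22.5 and 23.3 in GFP–TTP, and 32.1, 39.5 and 41.0 in GFP–TTP-AA. The fitted values of GFP–TTP lay below all others, and the other conditions overlapped. Its log2 fold change of 0.81 ± 0.25 in GFP–TTP-AA against GFP–TTP was called, and those of −0.69 ± 0.25 and 0.12 ± 0.25 against GFP, in GFP–TTP and GFP–TTP-AA, were not.

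The values of Oas1a and Oas1g are uncertain as values of single genes. Of the 1074 stretches of 28 bases, about the length of a footprint, in the coding sequence of each, 62.8% also occur in transcripts of the other. The alignment allowed more than 1 position per read, and how reads with several positions were counted is not given in the sources used here. For Oas1c 34.5% of stretches were shared with another gene, most often with Oas1e. For Oas2, Oas3 and Oasl2 no stretch was shared, and for Oasl1 0.398% were.

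Oas1c, whose levels were 10.3, 13.5 and 9.59 in GFP, 11.7, 15.3 and 10.9 in GFP–TTP, and 12.2, 16.0 and 11.4 in GFP–TTP-AA, was the OAS gene that was called nowhere. All ranges overlapped. Its log2 fold change was 0.07 ± 0.24 in GFP–TTP-AA against GFP–TTP and 0.25 ± 0.24 in GFP–TTP-AA against GFP. In GFP–TTP against GFP its log2 fold change was 0.18, with no SE, because the table of that comparison does not list it. Its promoter window holds the same 16 bases of overlapping interferon motif as those of Oas1a and Oas1g, on the other strand. There they begin 114 bases before the Oas1c start and lie close to the start of Oas1b. Oas1b and Oas1f, the other genes of the family in the table, had mean levels of 6.97 and 0.584, under the minimum of 10, and were not tested.

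**Figure D2:**
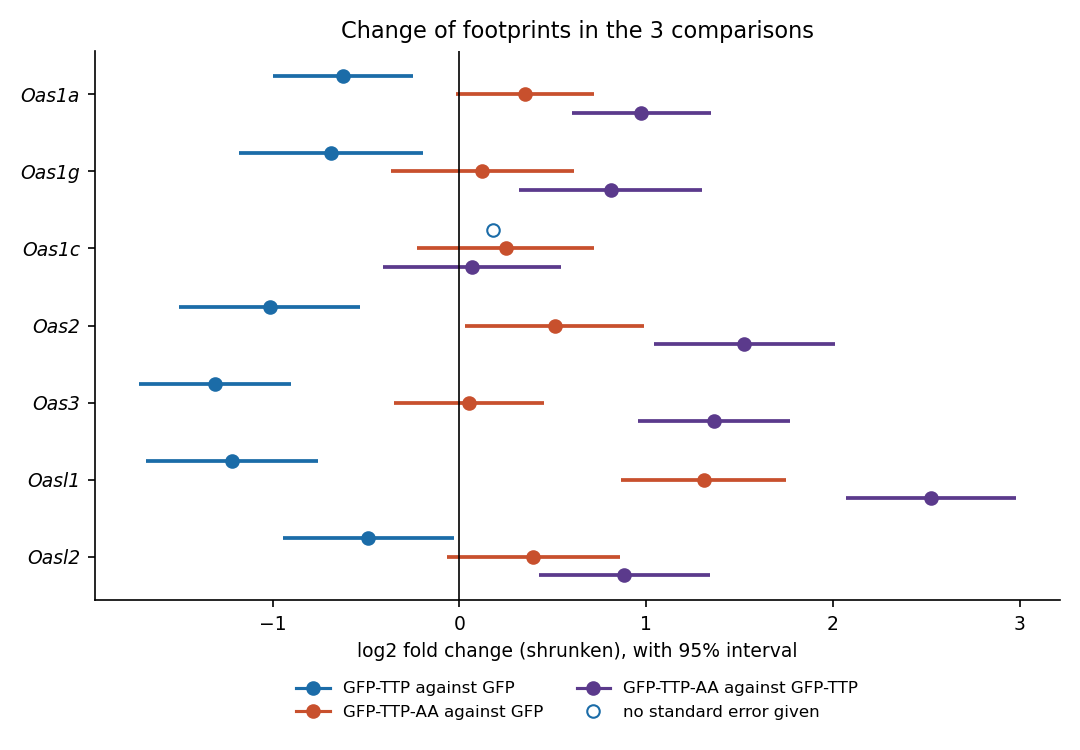
Shrunken log2 fold changes of the 7 OAS genes in the 3 comparisons, with 95% intervals from the deposited standard errors (an open point has none). For 6 OAS genes the GFP–TTP-AA against GFP–TTP values lie right of 0 with their intervals and the GFP–TTP against GFP values left of 0, whereas Oas1c lies near 0 throughout.

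In GFP–TTP against GFP, 3 of the 6 OAS genes tested were called lower (Oas3, Oasl1 and Oas2) and 0 higher, where 1.29% of the 9938 genes tested were called lower and 0.805% higher. The median log2 fold change of the 7 OAS genes was −0.69, and 0.00 over all genes tested. When GFP–TTP-AA was set against GFP, 1 of the 7 (Oasl1) was called higher and 0 lower, with 1.76% of 10099 genes called higher and 1.27% lower. All 7 had log2 fold changes above 0, between 0.05 and 1.31, with a median of 0.35 against 0.01 over all genes. GFP–TTP-AA against GFP–TTP gave 6 of the 7 called higher and 0 lower, with 5.66% of all genes called higher and 4.58% lower. The median was 0.97, and 0.01 over all genes. The OAS genes were chosen with such results known, so these counts are a description. Oas1a and Oas1g, both among the 6, share 62.8% of their coding stretches of 28 bases, so they may not be separate observations. The comparisons share libraries: GFP–TTP enters the first and the third, and a low level there moves both.

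Replicate number was a second source of differences among the OAS genes. Relative to the mean of the 3 replicate numbers, Oasl1 was higher by 0.89 on the log2 scale in replicate 3, Oasl2 by 0.54, Oas2 by 0.47 and Oas3 by 0.25, after the median of all genes was set to 0. For Oas1a (0.04) and Oas1g (0.13) replicate 3 lay near the other libraries. Oas1c was lower there by −0.20. The difference of replicate 3 from the mean of replicates 1 and 2 lay above that of 99.9% of genes for Oasl1, 99.2% for Oasl2 and 98.7% for Oas2. According to the methods this term stands for the library date. It was fitted without interaction, so whether the conditions differed more in 1 replicate number than in another cannot be read from these values.

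**Figure D3:**
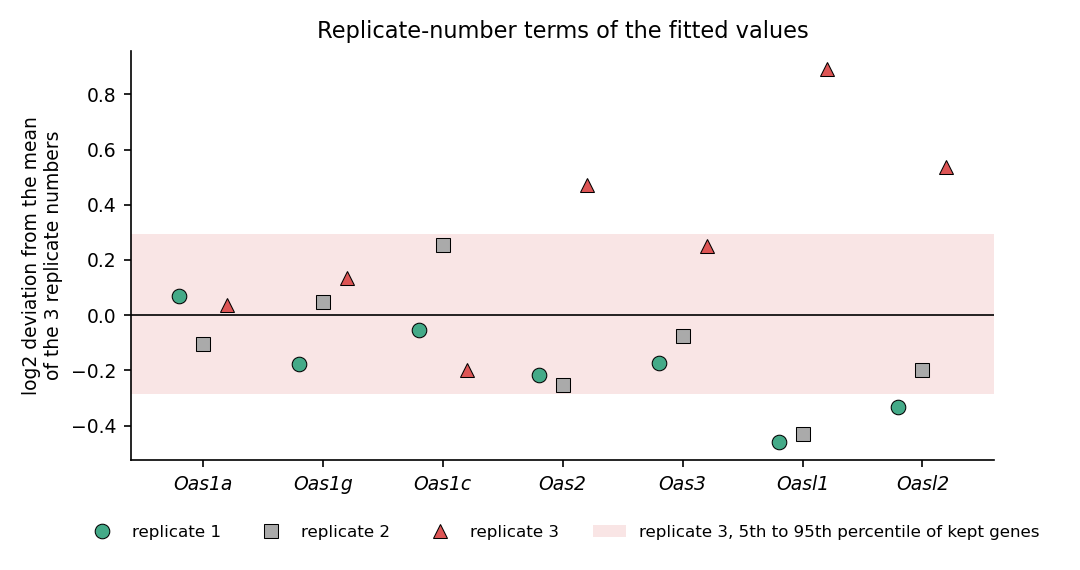
Log2 deviation of each replicate number from the mean of the 3, for the 7 OAS genes, after the median of all kept genes was set to 0; the band marks the 5th to 95th percentile of replicate 3 over kept genes. Replicate 3 of Oasl1, Oasl2 and Oas2 lies above the band (0.89, 0.54 and 0.47).

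Other genes that act on this pathway are Abce1, which encodes a factor that recycles ribosomes, and Pde12 and Akap7, which encode enzymes that degrade the 2′-5′ chains. Of these 3 genes 0 were called in any comparison by the Wald test, and 0 had an unadjusted p under 0.05. The smallest adjusted p was 0.539, for Akap7 in GFP–TTP-AA against GFP–TTP (log2 fold change 0.29 ± 0.25). Abce1 was the most footprinted, with levels of 1615, 1700 and 1831 in GFP, GFP–TTP and GFP–TTP-AA, and its log2 fold change in GFP–TTP-AA against GFP was 0.18 ± 0.13. Pde12 had levels of 344, 312 and 302.

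Of the other sensors of foreign RNA and their adaptors, 9 of 10 listed genes were tested. Over all genes tested, the shares called were those given above for the OAS genes: 1.29% lower in GFP–TTP against GFP, 1.76% higher in GFP–TTP-AA against GFP and 5.66% higher in GFP–TTP-AA against GFP–TTP. In GFP–TTP against GFP, 2 were called lower: Ifih1, which encodes the sensor MDA5 (−1.34 ± 0.25), and Ddx58, which encodes RIG-I (−1.26 ± 0.22). From GFP–TTP to GFP–TTP-AA, 3 were called higher: Ifih1 (2.43 ± 0.25), Ddx58 (1.30 ± 0.22) and Dhx58, which encodes LGP2 (0.78 ± 0.25). Ifih1 also rose in GFP–TTP-AA against GFP (1.08 ± 0.24). The level of Ifih1 was 49.0, 19.3 and 104 in GFP, GFP–TTP and GFP–TTP-AA, the order seen for Oasl1. The medians of the list were −0.34, −0.01 and 0.36 in GFP–TTP against GFP, GFP–TTP-AA against GFP, and GFP–TTP-AA against GFP–TTP.

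Among 15 listed genes of interferon production and signalling, 13 or 14 were tested. Usp18, which encodes an inhibitor of the interferon receptor, was the 1 of 13 called lower in GFP–TTP against GFP (−1.43 ± 0.24), as were 1.29% of all genes. In GFP–TTP-AA against GFP–TTP, 5 of 14 were called higher, as were 5.66% of all genes. These 5 were led by Irf9 (1.16 ± 0.25), a subunit of the factor that binds the interferon-stimulated response element, Usp18 (1.11 ± 0.24) and the receptor chain Ifnar1 (0.73 ± 0.16). Ifnar1 also rose in GFP–TTP-AA against GFP (0.56 ± 0.16, adjusted p = 0.0208). The medians were −0.16, 0.13 and 0.21 in the same order of comparisons.

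Of 36 other interferon-stimulated genes, 29 or 30 were tested. In GFP–TTP against GFP, 8 of 29 were called lower (1.29% of all genes), and the median of the list was −0.48. These 8 were led by Sp100 (−1.76 ± 0.21), Slfn5 (−1.60 ± 0.23) and Xaf1 (−1.23 ± 0.24). From GFP–TTP to GFP–TTP-AA, 16 of 30 were called higher (5.66% of all genes), and the median of the list was 0.68. These 16 were led by Slfn5 (2.10 ± 0.23), Sp100 (2.04 ± 0.21) and Xaf1 (1.62 ± 0.24). Gbp2, which encodes an interferon-induced GTPase, rose in GFP–TTP-AA against GFP (1.07 ± 0.24), where 29 genes were not called, with a median of 0.21. These lists were also written with earlier results known, and their counts are a description.

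**Figure D4:**
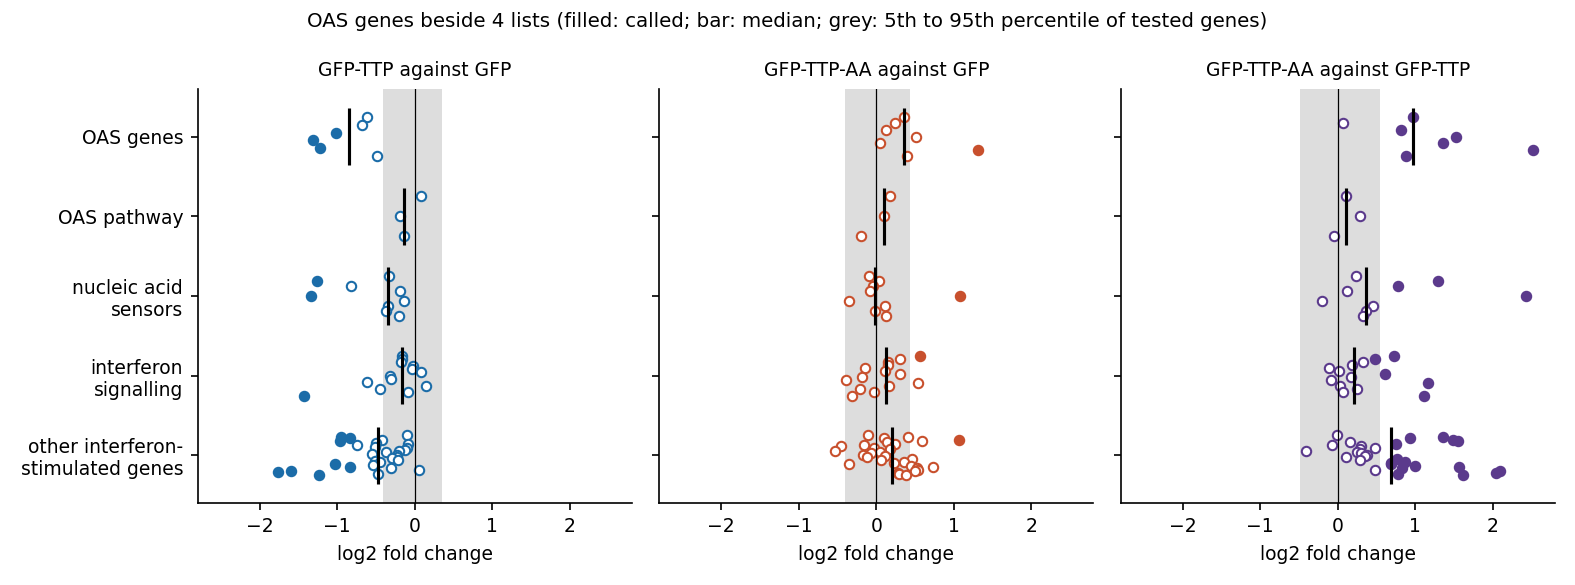
Log2 fold changes of the tested OAS genes and of the genes of 4 lists in the 3 comparisons, with called genes filled, a bar at each median and a grey band from the 5th to the 95th percentile of all tested genes. In GFP–TTP-AA against GFP–TTP the medians were 0.97 for the OAS genes, 0.68 for other interferon-stimulated genes, 0.36 for nucleic acid sensors and 0.11 for the 3 other genes of the OAS pathway.

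Of other genes with a start within 1 Mb of an OAS gene start, 54 or 55 were tested. In GFP–TTP against GFP 0 of 54 were called by the Wald test and 1 had an unadjusted p under 0.05, where 0.805% of all genes were called higher and 1.29% lower. Their log2 fold changes lay between −0.38 and 0.41 with a median of 0.02. Against GFP, 1 of 55 was called in GFP–TTP-AA, Aldh2 (−0.67 ± 0.15), where 1.27% of all genes were called lower and 1.76% higher. In GFP–TTP-AA against GFP–TTP 1 of 55 was called higher, Triap1 (0.54 ± 0.19), and 2 lower, Gcn1l1 (−0.53 ± 0.14) and Aldh2 (−0.46 ± 0.15), where 5.66% of all genes were called higher and 4.58% lower. For so few genes these counts of called genes lie near the shares over all genes. By the same Wald test, 5 of 55 had an unadjusted p under 0.05 in GFP–TTP-AA against GFP, and 9 of 55 in GFP–TTP-AA against GFP–TTP. The share of all genes under that unadjusted threshold is not given here. Triap1 lies 418 kb, Gcn1l1 642 kb and Aldh2 686 kb from the nearest OAS gene start. The median over all 664 tested genes of chromosome 5 was −0.01 in that comparison.

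**Figure D5:**
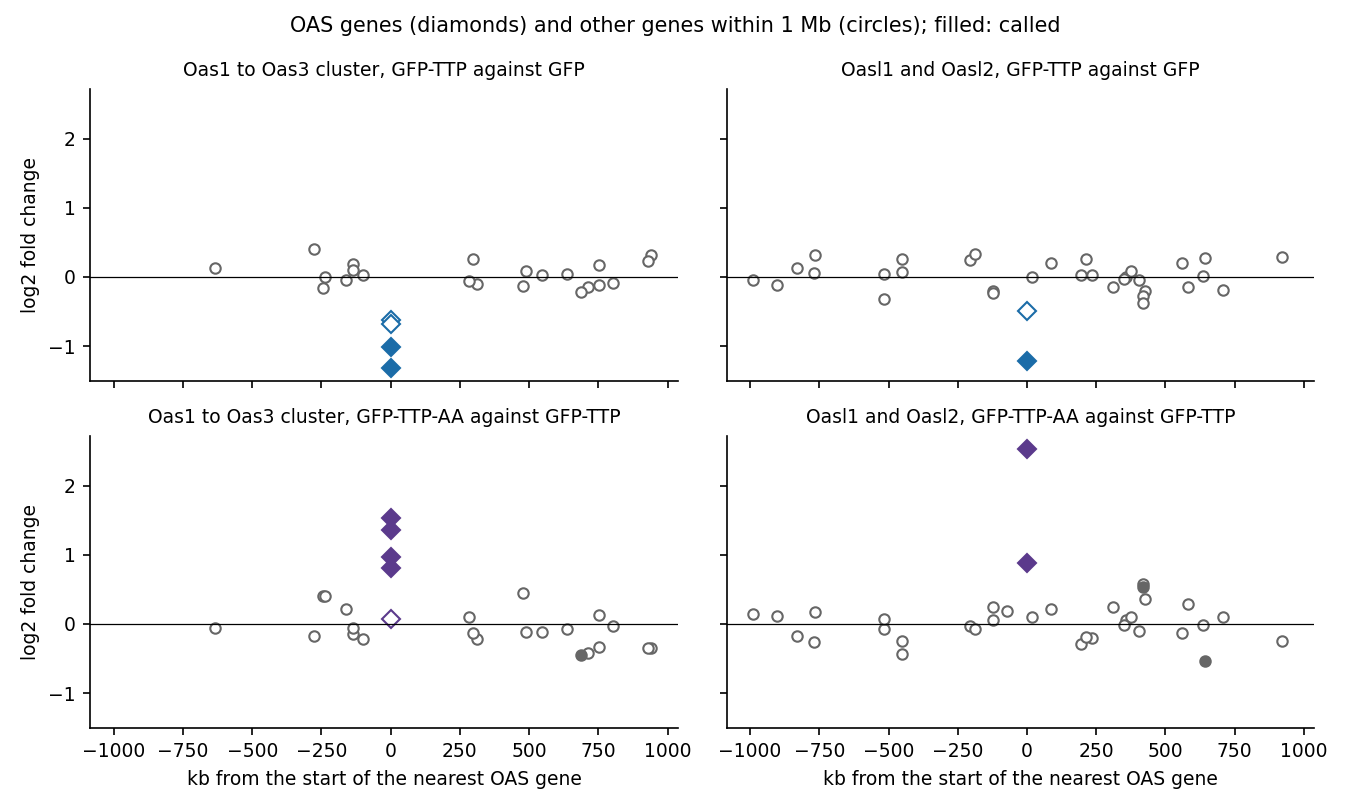
Log2 fold changes of OAS genes (diamonds, at 0 kb) and of other genes within 1 Mb (circles) against the distance from the start of the nearest OAS gene, in GFP–TTP against GFP and in GFP–TTP-AA against GFP–TTP, with called genes filled. The neighbours, called or not, lie between −0.53 and 0.57. Called OAS genes lie below −1 in the upper panels and above 0.8 in the lower panels. OAS genes that were not called lie at −0.49 (Oasl2), −0.62 (Oas1a) and −0.69 (Oas1g) in the upper panels and at 0.07 (Oas1c) in the lower panels.

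The 5 genes most like the mean profile of the 7 OAS genes were sought among 1007 genes outside the family that had a mean level of at least 50 and were called in at least 1 comparison, by the distance between centred log2 levels of the 3 conditions. They were Wfdc17 (distance 0.05), AF251705 (0.06), Lst1 (0.07), Il10ra (0.08) and Emr1 (0.08). None lies on chromosome 5. Among the OAS genes themselves Oas1a lay closest to the mean profile (0.14), and Oasl1 (0.98) and Oas1c (0.83) lay farthest. Il10ra encodes the ligand-binding chain of the interleukin-10 receptor, with levels of 145, 80.7 and 190 in GFP, GFP–TTP and GFP–TTP-AA.

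Emr1 encodes F4/80, a surface protein for which the cells were positive before transduction, and its level was 3652, 2283 and 5327 in GFP, GFP–TTP and GFP–TTP-AA. It fell in GFP–TTP against GFP (−0.68 ± 0.16) and rose in GFP–TTP-AA against GFP (0.54 ± 0.16) and against GFP–TTP (1.22 ± 0.16). Of the other macrophage markers, Lyz2 had the same order (63842, 45848 and 71203 in GFP, GFP–TTP and GFP–TTP-AA) and was called lower in GFP–TTP against GFP (−0.48 ± 0.12) and higher in GFP–TTP-AA against GFP–TTP (0.64 ± 0.12). Ptprc was called lower in GFP–TTP-AA against GFP–TTP (−0.44 ± 0.14), and Cd68, Csf1r and Itgam were not called. The 6 macrophage markers summed to 87106, 67461 and 97254 in GFP, GFP–TTP and GFP–TTP-AA, sums made up mostly of Lyz2, while the levels of Itgam (2959 in GFP and 3177 in GFP–TTP) and Ptprc (3322 and 4103) were not lower in GFP–TTP. S100a8 rose in GFP–TTP-AA against GFP–TTP (1.13 ± 0.25) and against GFP (1.05 ± 0.25). In bulk libraries fewer cells of a type and fewer footprints per cell cannot be told apart, and a part of these markers in the OAS differences was not tested. Footprints follow both the amount of an mRNA and the rate of its translation, and total RNA libraries were not analysed here.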

How the data were processed

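RiboSeq libraries of 9 samples were compared by condition, taken from the labels. Per the labels (the submitters’ processing notes) and methods, the authors trimmed reads with Trim Galore, mapped them to GRCm38/mm10 with TopHat2 2.0.12 (the methods name another TopHat version), counted with HTSeq and fitted DESeq2 1.6.3 with library date and condition. The deposited normalized table (a signal, 16932 lines, 16921 genes) holds fitted values: on the log2 scale only 5 singular values exceeded rounding. Because observed counts were not used here, no library could be left out. The deposited comparison tables gave lfcSE (another unit, the SE on the log2 scale) and, as 1 constant per library pair, the log2 fold change column, since the deposited mean alone did not fix the scale between conditions; no p-value of theirs was used. Size factors ranged from 0.405 to 2.20.

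Log2 fold changes of fitted values were divided by lfcSE (Wald test, two-sided, normal), adjusted by Benjamini-Hochberg over genes with a mean level of at least 10, threshold 0.05; the procedure was tested on simulated data. Depth enters through lfcSE. Python 3.11.15 packages were numpy 2.4.6, pandas 2.3.3 and scipy 1.17.1. Members and lists were chosen with earlier results of these data known. Named genes were all Oas genes, Zfp36, the 3 pathway genes, at most 3 called genes per list, comparison and neighbourhood, and the 5 most similar profiles. Markers were named as a whole list. Some listed genes are not reported here. Alternatives were other size factors, filters, adjustments, a chromosome median and a pseudocount of 10; the motif, paralog and order counts were added after the data were seen.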

Additional observations from a re-analysis of the deposited data

How the results depend on the processing

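No paired analysis was possible beyond the reported one, which already holds the replicate number as a term of the authors’ fit, because the table holds fitted values; for the same reason a fit without that term and one without each replicate in turn could not be made. With genes kept only at a mean level of at least 50, Oas1c, Oas1g, Oas2 and Oasl2 left the test, so that 3 OAS genes were called higher in GFP–TTP-AA against GFP–TTP (6 otherwise) and 2 lower in GFP–TTP against GFP (3 otherwise), and the median of the tested OAS genes was −1.22 in GFP–TTP against GFP (−0.85 over the 6 otherwise tested) and 1.36 in GFP–TTP-AA against GFP–TTP (0.97 otherwise). With the p-values of the 3 comparisons adjusted together, Oas1a in GFP–TTP against GFP (−0.62) was called. A pseudocount of 10 moved Oas2, Oasl1 and Oasl2 by more than 1 SE, to −0.72, −0.97 and −0.24 in GFP–TTP against GFP and to 1.13, 2.15 and 0.46 in GFP–TTP-AA against GFP–TTP. The remaining 102 values of single genes and 60 counts and medians, under size factors by the median of ratios, no filter, the filter of 50, joint adjustment, chromosome medians subtracted and the pseudocount, kept their direction and call or moved by less than 1 SE, or for counts by at most 1.5 times. Low levels limit Oas1c and Oasl2, whose shrunken changes rest on mean levels of 12.3 and 11.7.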
